A study of Mus musculus with 28 samples.

Results

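Of 28 mouse ears sequenced, 7 carried high counts of Krt71, Krt25 and Krt27, keratins of the inner root sheath that surrounds a growing hair, and they are described here against the other 21 ears. The members were chosen on those counts, so that every difference between the 7 hair keratin-high ears and the other 21 is a description, given with no test. The 7 ears were TPA+RGRN-305 replicates 1, 2, 6 and 9, TPA replicate 3 and RGRN-305 replicates 3 and 4. They made up 4 of 10 TPA+RGRN-305 ears, 1 of 10 TPA ears, 2 of 4 RGRN-305 ears and 0 of 4 vehicle ears. Put together, 6 of 14 ears that received RGRN-305 were among them, against 1 of 14 that did not.

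The study asked whether RGRN-305, an inhibitor of the chaperone HSP90, dampens skin inflammation caused by TPA, a phorbol ester irritant that acts through protein kinase C. All mice were wild-type female C57BL/6J animals aged 6 to 8 weeks, and each gave 1 library. The TPA+RGRN-305 ears received RGRN-305 (1 mg per ear in acetone) 100 min before TPA (2.5 µg per ear), the TPA ears received acetone before TPA, the RGRN-305 ears received the inhibitor before acetone, and the vehicle ears received acetone alone. A 4-mm punch biopsy was taken 4 hours after TPA or acetone. The mouse work comprised 2 independent experiments. Whether the sequenced ears came from both is not recorded, nor is the experiment of any single ear. The part of the experiment in the hair keratin-high ears could thus not be tested.

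Hair follicles cycle between growth (anagen), regression (catagen) and rest (telogen). In anagen, dividing matrix cells at the base of the follicle give rise to the inner root sheath, made with type II keratins such as Krt71 to Krt74, type I keratins such as Krt25 to Krt28, and trichohyalin (Tchh), and to the hair shaft, made with hard keratins and keratin-associated proteins that cross-link them. Krt35 and Krt85 are the earliest hard keratins of the forming shaft. Resting follicles hold little of these transcripts, while bulge stem cells persist through the cycle.

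The promoters of the 3 genes that chose the ears are shown because they share a TATA box at a similar distance from the start, and that of Krt85 because it is a shaft keratin whose window lacks these letters. Each runs 5′ to 3′ on the gene's strand, from 100 bases before the annotated start to 20 after it, read from GRCm39 with GENCODE starts, with TATAAA in capitals where it began 45 to 15 bases before the start. The windows are chr15:101651525-101651644 (Krt71), chr11:99213758-99213877 (Krt25), chr11:99241911-99242030 (Krt27) and chr15:101422035-101422154 (Krt85), all on the minus strand.
Krt71: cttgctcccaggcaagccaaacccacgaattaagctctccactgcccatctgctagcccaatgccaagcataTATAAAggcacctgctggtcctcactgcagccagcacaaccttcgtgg
Krt25: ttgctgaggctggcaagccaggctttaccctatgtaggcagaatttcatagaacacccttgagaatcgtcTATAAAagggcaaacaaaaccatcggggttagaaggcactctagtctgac
Krt27: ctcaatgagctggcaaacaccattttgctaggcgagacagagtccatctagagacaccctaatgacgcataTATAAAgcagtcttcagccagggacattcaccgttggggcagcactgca
Krt85: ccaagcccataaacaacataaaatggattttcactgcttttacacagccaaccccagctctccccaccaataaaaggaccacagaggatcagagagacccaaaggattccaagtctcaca
The motif began 28 bases before the start of Krt71, 30 before Krt25 and 29 before Krt27.

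Total counts were 17656420 to 22120897 in the 7 ears (median 20150143) and 16751780 to 24716640 in the other 21 (median 19617876). The library TPA+RGRN-305 6, which is among the 7, stood apart from its label as a female mouse. Its normalized count of Xist, the RNA that coats the inactive X chromosome of females, was 10.7, against 7897 to 14817 in the other 27 libraries, while its summed count over Y chromosome genes was 890, within the 487 to 959 of the others. Values without it are given below. Normalized counts are raw counts scaled by library, with 19947426 counts as the common size.

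Krt71, a type II inner root sheath keratin (GRCm39 chromosome 15, 101642384 to 101651544), had normalized counts of 1123.5, 132.5, 343.5 and 167.1 in TPA+RGRN-305 ears 1, 2, 6 and 9, 457.3 in TPA 3, and 129.8 and 281.8 in RGRN-305 ears 3 and 4. The other 21 ears had 0 to 24.5 (median 0.798), and 10 of them had no read. The groups did not overlap, and TPA+RGRN-305 1 held the highest count of all. In raw counts the lowest of the 7 was TPA+RGRN-305 2 with 138 reads, and the highest of the others was TPA+RGRN-305 10 with 26, which also had 22 reads of Krt25, 20 of Krt27, 10 of Krt35 and 6 of Krt85. That ear was counted among the 21, where its Krt71 and Krt25 were the highest.

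Krt25 and Krt27, type I partners of Krt71 on chromosome 11, followed the same order at the top. Krt25 (99206342 to 99213777) had normalized counts of 487, 85.5, 189.1 and 96.4 in the 4 TPA+RGRN-305 ears, 217.7 in TPA 3, and 74.4 and 127.7 in the RGRN-305 ears, against 1.09 to 20.7 (median 3.98) in the other 21. Krt27 (99236391 to 99241930) had 375.9, 86.4, 125.5 and 67.9, then 149.9, then 57.1 and 107.3 in the same order of ears, against 1.72 to 47.7 (median 12.8) in the other 21. Neither gene overlapped between the ears, although Krt27 came close, since 9 TPA ears outside the 7 held 27.1 to 47.7.

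The shaft keratins used as further markers were less even. Krt35 (chromosome 11, 99983019 to 99987067) had normalized counts of 98.7, 3.84, 56.2 and 20.2 in TPA+RGRN-305 ears 1, 2, 6 and 9, 6.57 in TPA 3, and 6.92 and 43.9 in RGRN-305 ears 3 and 4, against 0 to 9.43 (median 0.862) in the other 21. Only 4 of the 7 lay above every other ear. Krt85 (chromosome 15, 101413801 to 101422054) had 154.7, 8.64, 75.1 and 34.9, then 13.1, then 1.73 and 73.1 in the same order, against 0 to 5.66 in the others, of which 17 had none. For Krt85, 6 of the 7 lay above every other ear and RGRN-305 3 did not.

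**Figure D1:**
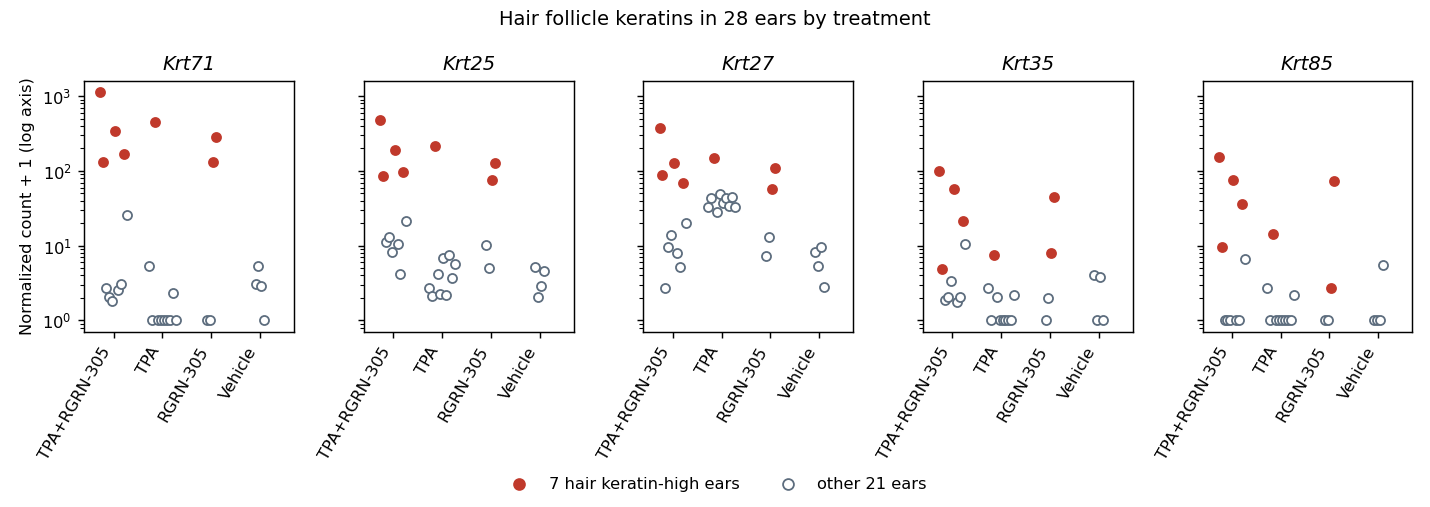
Normalized counts plus 1, on a log axis, of 5 follicle keratins in each of 28 ears, with filled points for the 7 hair keratin-high ears and open points for the other 21. For Krt71, Krt25 and Krt27 every filled point lies above every open point, while for Krt35 and Krt85 some overlap, and the open TPA points of Krt27 sit together at 27.1 to 47.7.

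With the treatment group in the model, 53 of 18991 genes (0.279%) were higher in the 7 ears and 1 (0.00527%) was lower at an adjusted p under 0.05, which serves here as a filter. At an unadjusted p under 0.05 there were 1184 genes (6.23%), and those lower made up 2.99% of all genes tested. The 53 genes differed by a median of 4.22 on the log2 scale, and the 50 of them with a read in any other ear by 1.39 to 7.40, against a median of 0.00 over all genes tested. Of the 53, 46 belonged to 4 lists of follicle structural genes. In 25 genes (0.132% of those tested) every one of the 7 ears lay above every other ear, and in 0 genes (0%) below. The gene lists were drawn up with earlier results of these data known, and the filter on low counts keeps genes that are present in the 7 ears alone, so that these shares describe the ears and support nothing further.

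Most of the 53 genes had few reads. Only Krt71, Krt27 and Tchh averaged above 50 normalized counts over the 28 ears. In the other 21 ears, 12 of the 53 had no more than 1 read in any ear, and 3 (Krtap5-25, Krtap1-3 and Gm4553) had none. For these 3 a floor of 3 counts over the 21 ears together made them at least 79.2-fold, 105-fold and 119.9-fold higher in the 7 ears, and with them at that bound the median of the 53 was again 4.22. In tissue biopsies, more follicle cells of a type and more RNA per cell cannot be told apart.

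**Figure D2:**
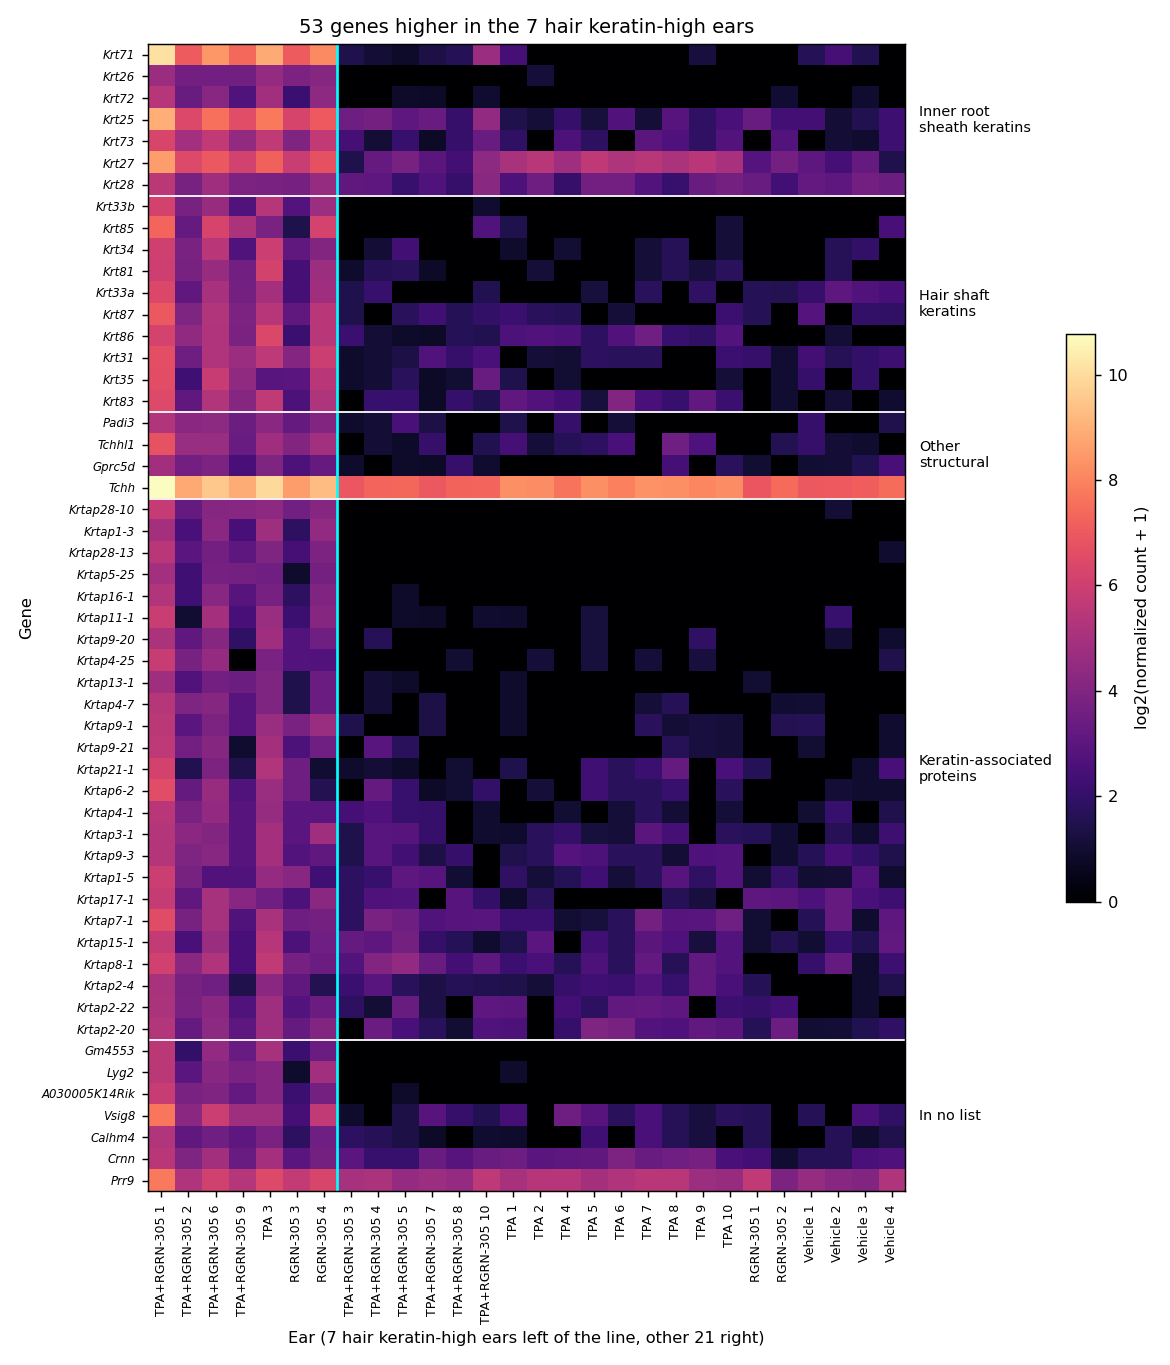
Log2 of the normalized count plus 1 for the 53 genes higher in the 7 hair keratin-high ears (rows, by gene list and then by difference) in 28 ears (columns, the 7 left of the line). Tchh, Krt71, Krt25 and Krt27 are brightest in the 7 ears, several keratin-associated protein genes are at 0 in nearly all of the other 21, and the TPA columns on the right are brighter for Krt27.

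Leaving out a single ear changed how many genes passed. The count of higher genes was 29 without TPA+RGRN-305 1, 33 without TPA 3 and 33 without TPA+RGRN-305 6, the library with little Xist. In each case all of those genes were among the 53, and of the 53 only 34, 37 and 35 still passed the filter on low counts, all with a positive difference. Without TPA+RGRN-305 6, Krt71 differed by 7.34 ± 0.47 (SE), Krt25 by 4.80 ± 0.32 and Krt27 by 3.43 ± 0.34 on the log2 scale, close to the values with it. Leaving out TPA+RGRN-305 2 moved the count of lower genes to 11. Without TPA+RGRN-305 10, the ear just outside the rule, 54 genes were higher, with all 53 among them.

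All 7 of the 8 inner root sheath keratins with enough counts were higher in the 7 ears. Their log2 differences were 7.26 ± 0.46 (SE) for Krt71, 6.64 ± 0.39 for Krt26, 5.77 ± 0.53 for Krt72, 4.74 ± 0.31 for Krt25, 3.60 ± 0.37 for Krt73, 3.40 ± 0.33 for Krt27 and 1.44 ± 0.31 for Krt28. Krt26 was the most even of them, with at most 24.9 normalized counts in the 7 ears and 13.9 at their median, while 20 of the other 21 ears had no read. Krt28 overlapped, with 12.1 to 45.7 in the 7 ears and 3.12 to 17.9 in the others. Krt74, a type II keratin of the same family, had only 25 reads over the 7 ears and 55 over the other 21 and was not tested. Summed over the list, the 7 ears held 15.6 to 109.3 CPM (counts scaled to the TMM-adjusted library size) and the others 1.11 to 4.77, with TPA+RGRN-305 10 at the top of the others.

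Among hair shaft keratins, 10 of 12 tested (16 in the list) were higher. The largest log2 difference was that of Krt33b, a type I keratin of the shaft cortex, at 7.40 ± 0.60 (SE), with 5.51 to 70.6 normalized counts in the 7 ears and 1 read in 1 of the other 21. Krt85 differed by 5.86 ± 0.69, Krt34 by 5.55 ± 0.50, Krt81 by 5.40 ± 0.47 and Krt35 by 4.09 ± 0.55. Krt32 and Krt84 did not pass, at 0.54 ± 0.20 and 0.24 ± 0.25. Both had reads in all ears, Krt84 with normalized counts of 44.9 to 353.4 in the 7 and 28.3 to 345.9 in the others. Krt82, a hard keratin of the hair cuticle, had too few reads to be tested, 104 over the 7 ears and 17 over the other 21, and so had Krt40 (38 and 4), Krt36 (34 and 15) and Krt39 (41 and 94).

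Of 12 other structural genes tested, 4 were higher. Tchh, which fills inner root sheath cells with granules, had normalized counts of 1752.8, 445.6, 740.7 and 484.7 in the TPA+RGRN-305 ears, 997.9 in TPA 3 and 373.8 and 619.2 in the RGRN-305 ears, against 117.5 to 316.4 (median 170.3) in the other 21. The groups did not overlap and the log2 difference was 2.23 ± 0.19 (SE). Padi3, the enzyme that converts arginines of trichohyalin to citrulline, differed by 4.08 ± 0.45, the trichohyalin-like gene Tchhl1 by 4.07 ± 0.50 and Gprc5d, an orphan receptor of hard keratinized tissue, by 3.74 ± 0.47. Tgm3, a transglutaminase that cross-links these proteins and is also active in epidermis, differed by 0.03 ± 0.08 and Krt75, the companion layer keratin, by 0.19 ± 0.09, and neither passed.

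Keratin-associated proteins gave 25 of the 53 genes, out of 36 tested. The mouse set is large, and 77 of its 113 genes had too few reads. Over these 77 genes the 7 ears held 2776 reads and the other 21 held 407, and 38 of them had reads in the 7 ears alone. By family, the 12 genes of family 5 had 629 reads in the 7 ears against 1 in the other 21, the 18 genes of family 10 had 674 against 22, the 16 of family 4 had 1019 against 82, and the 2 of family 28 had 251 against 2. Families 4, 5 and 10 are cysteine-rich proteins of the shaft. The largest differences among tested members with a read in the other ears were 7.38 ± 0.69 (SE) for Krtap28-10 and 6.89 ± 0.81 for Krtap28-13, each with 1 read over those 21. Krtap1-3 and Krtap5-25, at 0 in all of them, averaged 15.3 and 11.5 normalized counts in the 7.

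Of the 36 tested, 11 did not pass. Krtap3-2 had normalized counts of 582.1 to 890.2 in the 7 ears and 560.5 to 835.1 in the others, a log2 difference of 0.00 ± 0.09 (SE). The 5 tested genes of family 19 were also among the 11, with log2 differences of 0.19 for Krtap19-9b to 0.89 for Krtap19-3. Since the deposited counts kept only uniquely aligned reads, members with near-identical copies lose reads, and the split of reads within a family is uncertain.

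The remaining 7 higher genes were in no list, and none averaged above 50 normalized counts, so that they are named after their values were seen. Prr9, a proline-rich protein gene, had 35.5 to 219.1 normalized counts in the 7 ears and 13.9 to 49.9 in the others (log2 difference 1.39 ± 0.27, SE). Vsig8, an immunoglobulin-domain gene, had 4.33 to 207.7 against 0 to 10.4, and Lyg2, a g-type lysozyme-like gene, had 0.865 to 45.7 against 1 read in all the other ears. Crnn, Calhm4, A030005K14Rik and Gm4553 completed the set. Crnn, or cornulin, a fused-type S100 protein of squamous epithelium, had 6.92 to 44.7 against 1.00 to 13.9, and Calhm4, of the calcium homeostasis modulator family, had 2.60 to 38.4 against 0 to 4.74. The single lower gene was Gm9711, annotated as a pseudogene, with 2 reads over the 7 ears and 131 over the other 21, and its call was lost when any of the 7 ears, or RGRN-305 1, was left out.

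Most of the 53 genes lay side by side in the genome. When genes within 1000 kb of each other were joined, 47 of them fell into 6 clusters and 6 stood alone. The largest, on chromosome 11 from 99206342 to 99987067 (781 kb, Krt25 to Krt35), held 24 of the 53 genes and 31 tested protein-coding genes in all. The type II keratin cluster on chromosome 15 (101328919 to 101710802, Krt87 to Krt73) held 8 of 16 tested, and the cluster on chromosome 16 (88525750 to 89368071, Krtap13-1 to Krtap11-1) held 7 of 16. On chromosome 1, A030005K14Rik lay between Krtap28-10 and Krtap28-13 (83019245 to 83039642), and on chromosome 7 Gm4553 lay beside Krtap5-25 (141697078 to 141719476). On chromosome 3, Crnn, Tchh and Tchhl1 shared a stretch from 93052094 to 93379287.

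The TATA box printed above was common among them. TATAAA on the gene's strand, beginning 45 to 15 bases before the start, stood in 34 of the 53 promoters (64.2%), against 293 of all 15101 protein-coding genes tested (1.94%). Structural genes of the lists that did not pass had it in 8 of 21 (38.1%), and interfollicular epidermis genes in 5 of 14 (35.7%), so that other keratinocyte genes held it as well. Anywhere in the 300 bases around the start and on either strand, it stood in 81.1% of the 53 and 10.3% of all. The letters CTTTGAT, a motif of Lef1 and its relatives, stood in 1.89% and 3.3%, and TTTATNGC in 3.77% and 2.08%. A match is a description of letters and not of binding.

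The label of these ears as anagen rests on the structural genes. Lists of follicle regulators and niche cells gave no calls. In 8 lists (matrix and shaft transcription factors, the hedgehog, Wnt, BMP, Notch and FGF pathways, dermal papilla, and bulge), 0 of 122 tested genes passed in the edgeR fit and 0 in DESeq2. Over all genes tested, 0.279% passed as higher and 0.00527% as lower in edgeR, so that 0 of 122 lies near these shares. At an unadjusted p under 0.05, 5 of the 122 were higher and 6 lower, when 6.23% of all genes passed in either direction. The median log2 difference of the 122 genes was 0.02, from -0.22 for the BMP antagonist Grem1 to 0.47 for Hoxc13, a homeobox factor that activates hair keratin genes. Shh, the hedgehog ligand of the anagen matrix, had 7 reads over the 7 ears and 4 over the other 21.

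The pooled values of Hoxc13 and Foxn1, the nude gene, overlapped, but both genes also changed with treatment. Hoxc13 differed by -1.81 ± 0.20 (SE) on the log2 scale with TPA against vehicle, and by 1.73 ± 0.16 with TPA+RGRN-305 against TPA. For Foxn1 these differences were -2.17 ± 0.11 and 2.11 ± 0.10. TPA ears were 1 of the 7 and 9 of the others, so that the pooled ranges mix treatment with ear class. Hoxc13 had normalized counts of 24.1 to 123.6 (median 93.5) in the 7 ears and 13.9 to 104.4 (median 60.2) in the others, with log2 differences of 0.54 within TPA+RGRN-305, 0.05 within TPA and 0.53 within RGRN-305. Foxn1 had 112.7 to 369.7 (median 347.6) against 52.3 to 371.4 (median 282.8). With the treatment group in the model it differed by 0.17 ± 0.09 (SE). Krt15 and Lgr5, markers of bulge cells, differed by 0.04 ± 0.08 and 0.05 ± 0.11.

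Genes of pigment cells and of dividing cells, both active in an anagen bulb, gave no calls in edgeR or in DESeq2, when 0.279% of all genes were called higher in edgeR. Of 17 tested pigment genes, 2 were higher at an unadjusted p under 0.05, which 6.23% of all genes reached in either direction, and the pigment median was 0.06. Tyr, the enzyme that starts melanin synthesis, had 42.2 to 74.4 normalized counts in the 7 ears and 25.2 to 85.7 in the others, and Pmel, a melanosome fibre protein, had 196.0 to 391.7 and 126.8 to 447.5. Of 26 cell cycle genes, 0 reached an unadjusted p under 0.05, and Mki67 differed by 0.11 ± 0.10 (SE). Of 14 interfollicular epidermis genes, 0 passed in edgeR or DESeq2 and 0 reached an unadjusted p under 0.05, with a median of -0.04.

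**Figure D3:**
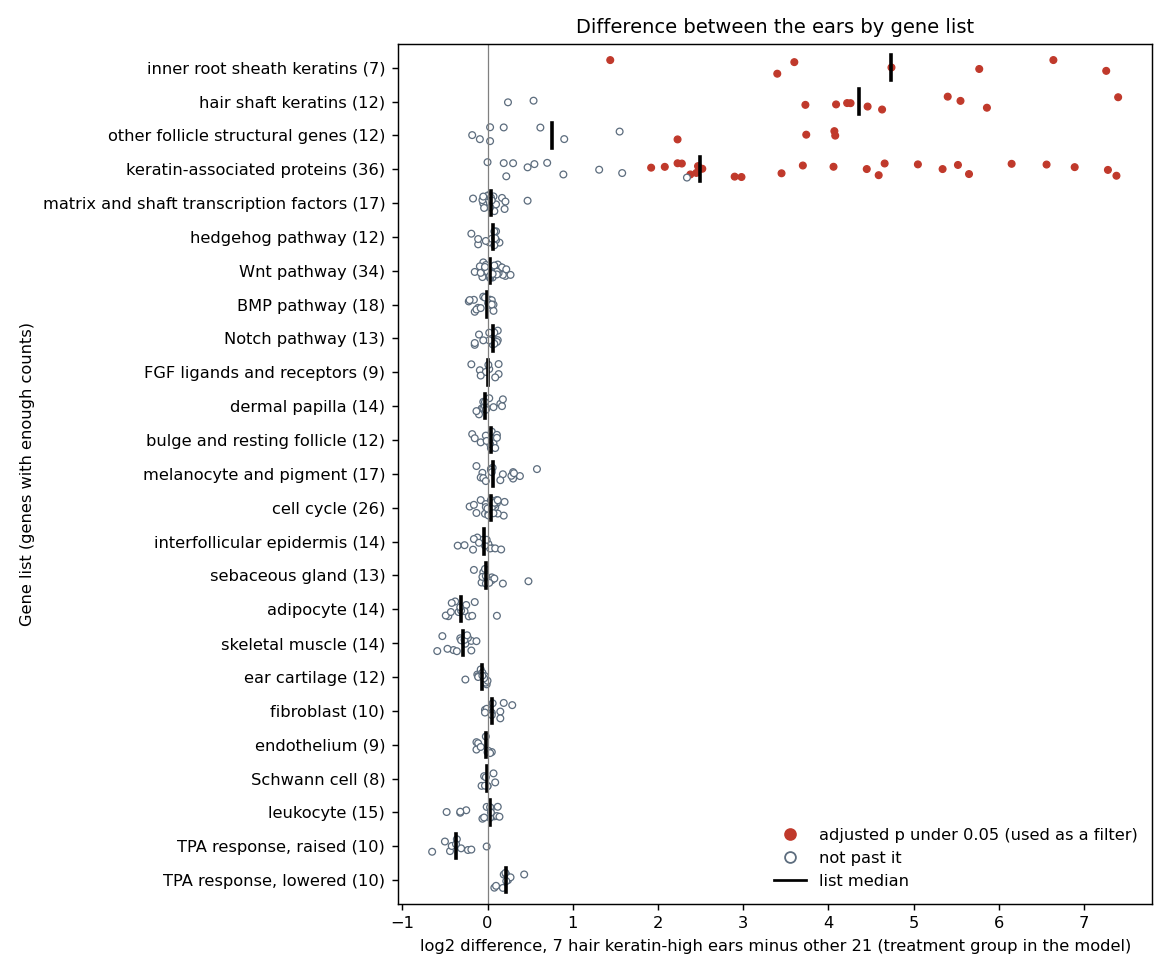
Log2 difference, 7 hair keratin-high ears minus the other 21, for every tested gene of 25 lists (points, filled where the adjusted p was under 0.05) with the list median (bar) and the number of tested genes in brackets. Filled points occur in the 4 structural lists alone, whose medians run from 0.76 to 4.74. The medians furthest left of 0 are those of the genes raised by TPA (-0.37), the adipocyte list (-0.31) and the muscle list (-0.29).

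Fat and muscle markers were the exception among other cell types. Of 14 adipocyte genes, 11 were lower at an unadjusted p under 0.05, when 2.99% of all genes tested were. After adjustment 0 of them passed in edgeR (2 lower in DESeq2). Their median was -0.31, with medians of -0.25 within TPA+RGRN-305, -0.38 within TPA and -0.29 within RGRN-305. Adipoq, the adipocyte hormone adiponectin, had 277.9 to 514.4 normalized counts in the 7 ears (median 395.6) and 393.4 to 687.4 in the others (median 522.7). Summed over the list, the 7 ears held 903 to 1112.8 CPM and the other 21 held 982.4 to 1517.6. Of 14 skeletal muscle genes 7 were lower at an unadjusted p under 0.05 (0 in DESeq2), against the same 2.99% of all genes. Their median was -0.29, with medians of -0.13 within TPA+RGRN-305, -0.52 within TPA and -0.56 within RGRN-305. The muscle sums were 6128.6 to 9133.2 CPM in the 7 ears and 6042.9 to 12124.4 in the others. The part of fat and muscle in the follicle differences was not tested.

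Genes raised by TPA, a list of 10 that earlier work on these samples had picked, differed by a median of -0.37 between the ears, with medians of -0.79 within TPA+RGRN-305, 0.03 within TPA and -0.55 within RGRN-305. The 10 genes of the list lowered by TPA had a median of 0.22. None of these 20 genes passed in edgeR or DESeq2, with 1 and 3 at an unadjusted p under 0.05, which 6.23% of all genes tested reached.

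The follicle genes kept their direction within each treatment group. All 53 were higher in the hair keratin-high ears of TPA+RGRN-305 (4 against 6), of TPA (1 against 9) and of RGRN-305 (2 against 2). Since the ears of all 3 groups entered the rule, this follows in part from the choice. The size was less even. On the log2 scale Krt71 differed by 6.38 within TPA+RGRN-305 and 9.03 within TPA. Within RGRN-305 the other 2 ears had no Krt71 read, and against a floor of 3 counts over both the hair keratin-high ears were at least 134.9-fold higher. Krt27 differed by 4.17 within TPA+RGRN-305, 2.00 within TPA and 3.14 within RGRN-305. The smaller Krt27 value within TPA stands beside the higher Krt27 of the other TPA ears.

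Among the 7 ears, Krt25 and Krt27 kept close proportions to Krt71, while the shaft keratins Krt35 and Krt85 varied widely. Per kilobase of transcript, the level of Krt25 was 0.476 to 0.709 of that of Krt71, a 1.49-fold range, and Krt27 was 0.462 to 0.920 of it. The other keratins of both classes lay between, the inner root sheath keratins with ranges of 2.72-fold for Krt72 to 4.81-fold for Krt26, and the shaft keratins Krt31, Krt33b, Krt81 and Krt86 with 2.69-fold, 2.86-fold, 4.59-fold and 6.82-fold. Krt85 relative to Krt71 ran from 0.0124 in RGRN-305 3 to 0.241 in RGRN-305 4, a 19.5-fold range, and Krt35 from 0.0131 in TPA 3 to 0.149 in TPA+RGRN-305 6, an 11.4-fold range. As the ears were chosen on Krt71, Krt25 and Krt27, their close proportions are a description of the choice as well.

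The shaft keratins also differed in their order from ear to ear. Krt35 relative to Krt86, a cortex keratin, was 0.0647 in TPA 3 and 0.156 in TPA+RGRN-305 2, against 0.838 to 1.64 in the other 5 ears, a 25.3-fold range. TPA 3 had the highest Krt86 and Krt81 of all ears, with 83.2 normalized counts of Krt86, but 6.57 of Krt35 and 13.1 of Krt85. RGRN-305 4 was unlike it, with 43.9 of Krt35 and 73.1 of Krt85 but only 1 raw read of Krtap21-1 and 7 reads over the 6 genes of family 6, glycine- and tyrosine-rich proteins of the shaft, where TPA 3 had 70 and TPA+RGRN-305 1 had 318. Single ears carry these contrasts, and their counts are low, so that no spread can be given.

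**Figure D4:**
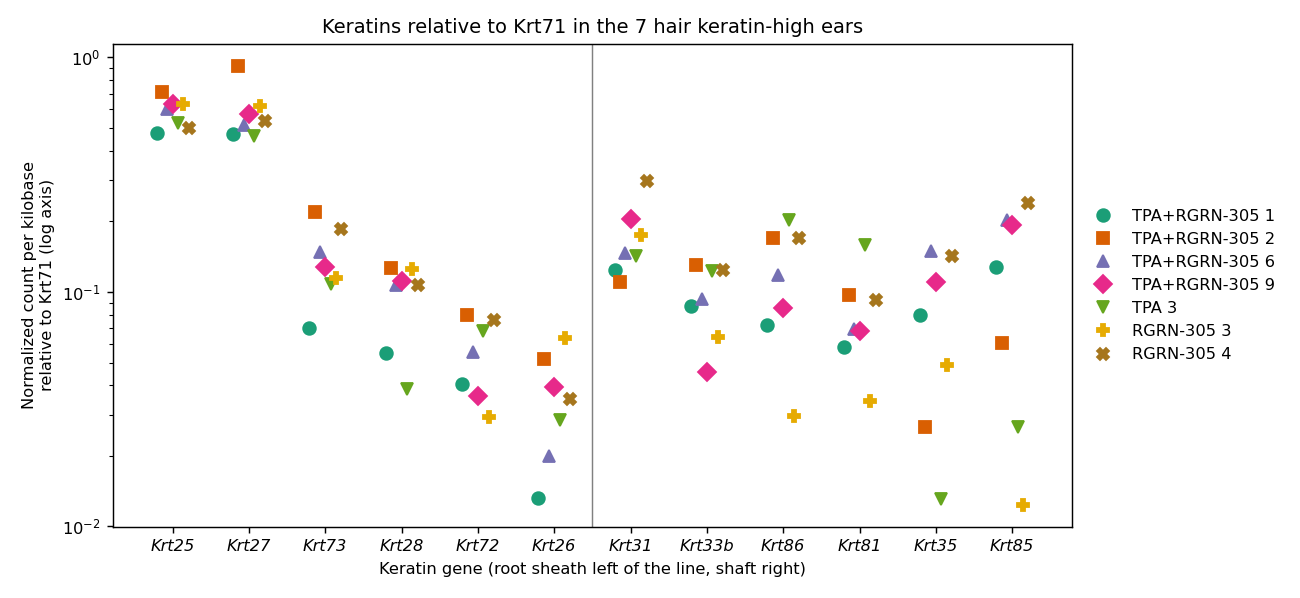
Normalized count per kilobase of 6 inner root sheath keratins and 6 shaft keratins relative to Krt71, on a log axis, in each of the 7 hair keratin-high ears. Krt25 and Krt27 lie close together across ears, from 0.462 to 0.920, while Krt35 and Krt85 spread from 0.0124 to 0.241 and the other keratins of both classes lie between in spread.

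The genes most like Krt71 were sought by Pearson's r of log2 CPM over the 28 ears after the treatment group means were removed, a description that the 7 high ears dominate. The 10 highest were Krtap28-10 (0.961), Krt26 (0.960), Krt33b (0.957), Krt25 (0.941), Krtap28-13 (0.940), Krt72 (0.937), Krtap1-3 (0.934), A030005K14Rik (0.933), Gm4553 (0.932) and Krtap16-1 (0.922). All 10 were among the 53 genes, and the lowest r of the 53 was 0.612.

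Treatment comes from the labels and was not used to choose the ears, so follicle genes were also tested by treatment, over all 28 ears with no term for the 7. Without the 7 ears, 24 genes of the 4 structural lists passed the filter on low counts, against 67 with all ears. Many of the 67 were thus tested only through reads of the 7 ears, 6 of which received RGRN-305. The rule also used Krt71, Krt25 and Krt27. The tests by treatment describe the groups within these limits. Of 67 tested genes of the 4 structural lists, 12 were higher and 3 lower with TPA+RGRN-305 than with TPA, when 33% of all tested genes were higher and 32.6% lower. The shares of follicle genes were thus below the background in both directions. With RGRN-305 against vehicle 0 of 67 passed in edgeR and in DESeq2, and 0% of all genes passed in edgeR in either direction. At an unadjusted p under 0.05, 12 of the 67 were higher and 0 lower, when 4.18% of all genes were higher and 5.36% lower. Of the ears compared, 2 of 4 RGRN-305 ears and 0 of 4 vehicle ears were among the 7. The genes higher in the 7 ears also varied together (r with Krt71 of at least 0.612). The 12 are thus no count of independent genes. With TPA against vehicle 9 were higher and 1 lower (background 31.6% and 34.4%). Averaged over both pairs, RGRN-305 gave 16 higher and 1 lower (background 18.1% and 21.7%).

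Krt35 and Krt85 led the higher genes with TPA+RGRN-305. Krt35 averaged 19.4 ± 32.7 normalized counts with TPA+RGRN-305 and 1.05 ± 2.04 with TPA (SD, n = 10 each), a log2 difference of 3.96 ± 1.04 (SE, adjusted p = 0.00126 by edgeR), and Krt85 averaged 27.9 ± 50.7 and 1.61 ± 4.10, a difference of 3.94 ± 1.18 (adjusted p = 0.00411). The medians were 3.12 and 0 for Krt35 and 2.83 and 0 for Krt85, so that the means rest on a few ears. With a term for the 7 ears in the model, which was built from counts of such genes and so goes with no test here, Krt35 differed by 2.43 ± 0.84 and Krt85 by 2.02 ± 1.01. Krtap17-1 and Krtap4-25, at 2.77 ± 0.72 (adjusted p = 0.00107) and 2.23 ± 0.98 (adjusted p = 0.0464), were the highest of the keratin-associated proteins that passed, and with that term they gave 1.86 and 0.35. The call of Krtap4-25 was lost without vehicle 4, and Krt85 differed by 5.79 without TPA 3. Krt35 and Krtap17-1 fell below the filter on low counts without TPA+RGRN-305 1, 6 or 9, and Krtap4-25 without TPA 3 or TPA+RGRN-305 1, 2 or 6. The count of higher follicle genes was 31 without TPA 3, 4 without TPA+RGRN-305 1, 6 without TPA+RGRN-305 6 and 19 without TPA+RGRN-305 10, against 12 with all ears.

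The mean RGRN-305 effect on Krt71 changed with that term, which follows in part from the choice of the ears on Krt71. Krt71 was higher by 3.77 ± 1.42 (SE, adjusted p = 0.0345 by edgeR) over both pairs, and gave -0.13 ± 0.97 with a term for the 7 ears. Krt85 was higher by 3.87 ± 1.14 (adjusted p = 0.00723), against 0.44 with the term, and Krt35 by 3.49 ± 0.95 (adjusted p = 0.00371), against 1.11. Krt26 (adjusted p = 0.0384) also passed, and no fold is given for it since the vehicle ears had no read. The calls of Krt71 and Krt26 were lost without any 1 vehicle ear, without RGRN-305 3 or 4, or without TPA+RGRN-305 1, and that of Krt26 also without TPA+RGRN-305 6, while those of Krt85 and Krt35 were lost without RGRN-305 4, at 1.55 and 2.42. The effect on Krt71 was 6.65 ± 1.38 without TPA 3, the single hair keratin-high ear that had no RGRN-305. This larger value follows in part from the choice of TPA 3 on Krt71. The effect was 3.69 ± 1.45 without TPA+RGRN-305 6. In the same way, the number of higher genes was 30 without TPA 3, 26 without RGRN-305 2, 3 without RGRN-305 4, and 7 or 8 without TPA+RGRN-305 1, TPA+RGRN-305 6 or vehicle replicates 1, 2 or 4.

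As a single value, Krt71 in log2 CPM was higher by 2.64 with TPA+RGRN-305 than with TPA (two-sided permutation test with 100000 resamples, p = 0.0569, adjusted p = 0.114 over 2 tests) and by 2.38 with RGRN-305 than with vehicle (two-sided exact permutation test, p = 0.429, adjusted p = 0.429). Neither passed. Without TPA 3, the only TPA ear chosen on Krt71, the first difference was 3.40, and it then passed, which follows in part from that choice.

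Krt27 was higher in TPA ears outside the 7 as well. Krt27 was higher with TPA than with vehicle by 3.13 ± 1.21 (SE, adjusted p = 0.0231 by edgeR), and the 9 TPA ears outside the 7 held 27.1 to 47.7 normalized counts against 1.82 to 8.51 in the 4 vehicle ears, with no overlap. Its call was lost without vehicle replicate 2 or 4. In the same 9 ears Krt71 had 0 to 4.37 normalized counts. Krt86 had 2.58 to 83.2 normalized counts with TPA (median 5.51) and 0 to 1.09 with vehicle, where it had 1 read in all (adjusted p = 0.0322 by edgeR). Krt83 had 1.29 to 49.2 with TPA (median 5.26) and 0 to 1.09 with vehicle, with 2 reads in all (adjusted p = 0.0499 by edgeR). Both calls were lost without TPA 3 and without any 1 vehicle ear. That of Krt83 was also lost without RGRN-305 3, TPA+RGRN-305 2 or TPA+RGRN-305 9. The 9 higher follicle genes were 4 without TPA 3 and 5 without vehicle 2.

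Krt84 and Psors1c2, which did not pass between the ears, differed by treatment. Krt84 averaged 266.5 ± 50.8 normalized counts with TPA (n = 10) and 48.8 ± 18.9 with vehicle (SD, n = 4), higher by 2.42 ± 0.36 (SE, adjusted p = 6.02e-07 by edgeR), and with TPA+RGRN-305 it averaged 141.9 ± 90.1 (n = 10), a log2 difference of -0.91 ± 0.23 from TPA (adjusted p = 0.000727). Psors1c2, a gene of cornified epithelium, averaged 762.2 ± 148.8 with TPA+RGRN-305 and 1345.5 ± 193.9 with TPA (SD, n = 10 each), a difference of -0.82 ± 0.10 (adjusted p = 5.88e-09). It was higher with TPA than with vehicle by 1.52 ± 0.14 (adjusted p = 3.15e-11). Krt32 went the other way, at -1.15 ± 0.29 with TPA (adjusted p = 0.000714) and 1.01 ± 0.23 with TPA+RGRN-305 against TPA (adjusted p = 0.00025).

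Smaller changes completed the structural lists. With TPA+RGRN-305 against TPA, S100a3, a calcium-binding protein of the hair cuticle, was higher by 0.67 ± 0.21 (SE, adjusted p = 0.00587 by edgeR) and the metallothionein Mt4 by 0.42 ± 0.14 (adjusted p = 0.0112), while Tgm3 differed by -0.33 ± 0.07 (adjusted p = 0.000194). With a term for the 7 ears S100a3 gave 0.42, and without TPA+RGRN-305 1 it gave 0.43. With TPA against vehicle, the desmosome gene Dsg4 was higher by 2.30 ± 0.79 (adjusted p = 0.0115, and by 3.84 without vehicle 4) and Krtap2-4 by 2.66 ± 1.13 (adjusted p = 0.0396, lost without vehicle 1, 2 or 3). Krtap2-22 averaged 6.75 ± 7.54 normalized counts with TPA (n = 10) and 0.237 ± 0.473 with vehicle (SD, n = 4, 1 read in all, adjusted p = 0.01). Dsg4 and Krtap2-4 fell below the filter on low counts without TPA 3 or TPA+RGRN-305 1 or 6, and Krtap2-4 also without TPA+RGRN-305 2. Averaged over both RGRN-305 pairs, Tchhl1 was higher by 2.31 ± 0.93 (adjusted p = 0.0479), against -0.22 with a term for the 7 ears. Krtap16-1 (adjusted p = 0.0408) and Krtap28-10 (adjusted p = 0.0352) also passed, with 0 reads and 1 read over the 4 vehicle ears. All 3 calls were lost without any 1 vehicle ear or without RGRN-305 4, and those of Tchhl1 and Krtap28-10 also without RGRN-305 3 or TPA+RGRN-305 1. That of Tchhl1 was lost without TPA+RGRN-305 2 or 6 too, and Krtap16-1 fell below the filter without TPA 3 or TPA+RGRN-305 1 or 6.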

How the data were processed

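Ear skin from 28 mice (separate animals, 4 groups) was profiled by stranded total RNA sequencing. Per the labels and methods, the authors aligned paired reads to GRCm39 and deposited raw counts per gene of uniquely and unambiguously assigned reads, made with Subread 2.10.3. Of 55414 genes, 54749 matched the GENCODE annotation used for names and positions, and 0 columns were tied to no sample. Genes were kept by filterByExpr (minimum count 10, minimum total 15), leaving 18991. Counts were fitted in edgeR 4.0.16 (R 4.3.3) by quasi-likelihood with TMM scaling (factors 0.868 to 1.1), with treatment groups and a term for the 7 ears, or treatment groups alone, and Benjamini-Hochberg adjustment over all genes tested. The study used DESeq2, run here (1.42.0) as an alternative, beside RLE factors, library totals, no filter, replicate block, left-out libraries, and the TPA+RGRN-305 libraries alone. Leaving out TPA+RGRN-305 10 was added after seeing the data. Permutation tests used SciPy 1.17.1. On simulated data for the 7 ears, with 18671 genes, 99% of 100 changes of 2-fold were called, and so were 11 genes with no planted change. The changes were planted only in genes with an expected count above 50, so that this share does not cover genes with few reads, which most follicle genes are. The members and gene lists were chosen with earlier results of these data known. Named genes were the 5 markers, up to 4 called members per list with the largest difference, the 10 most like Krt71, called genes in no list averaging above 50 normalized counts (none), and the 2 largest changes each way per list by treatment. Further list members are named after their values were seen.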

Additional observations from a re-analysis of the deposited data

Results flagged for a closer look

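In 24 combinations of 6 genes and 4 treatment groups, single ears were checked for a large gap to the rest of their group. The cut-off is one set for about 1 of 20 by chance. That rate does not hold here, since several groups had few reads and the hair keratin-high ears were chosen on such counts. The gaps are thus a description. TPA+RGRN-305 1 stood far above the other TPA+RGRN-305 ears in normalized counts of Krt71 (1123.5), Krt25 (487), Krt27 (375.9), Krt85 (154.7) and Tchh (1752.8). TPA 3 stood far above the other TPA ears for Krt71 (457.3), Krt25 (217.7), Krt27 (149.9), Krt35 (6.57), Krt85 (13.1) and Tchh (997.9). RGRN-305 4 stood apart for Krt35 (43.9) and Krt85 (73.1), and vehicle 4, which is not among the 7, for Krt85 (4.55) at a few reads. The first 3 of these ears are hair keratin-high ears, chosen on such counts, so that their gaps follow in part from the choice.

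For Psors1c2, the effect of RGRN-305 differed with and without TPA, by -1.20 ± 0.18 on the log2 scale (SE, adjusted p = 2.31e-06 by edgeR). Such a difference was common, since 25% of all tested genes passed as lower in this comparison and 25.8% as higher. Psors1c2 differed by -0.82 ± 0.10 with TPA+RGRN-305 against TPA, and by 0.38 ± 0.16 (adjusted p = 0.471) with RGRN-305 against vehicle.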

How the results depend on the processing

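The 53 genes higher in the 7 ears were also higher under RLE factors (53), library totals (54) and DESeq2 (60), with all 53 shared in each. Without the filter on low counts 134 were higher and 21 lower, and within the TPA+RGRN-305 libraries alone 13 and 0. The 1 lower gene became 6 in DESeq2 and 0 with a replicate block. Leaving out a library gave 29 to 70 higher and 0 to 11 lower genes.

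With TPA+RGRN-305 against TPA, 12 higher follicle genes became 31 with library totals, 34 with no filter, 8 in DESeq2, 3 without the 7 ears and 4 with a term for them, and 3 lower became 6, 5 and 7 with no filter, without the 7 ears and with the term. The last 2 settings use ears chosen on these genes. Without the 7 ears 24 follicle genes were tested, against 67 with them. The 3 higher and 5 lower were then 12.5% and 20.8%, when 29.6% and 29.7% of all genes passed. With all ears the shares were 17.9% and 4.48%. With TPA against vehicle, 9 higher became 5 without the 7 ears, and 1 lower became 4 with library totals and 3 with the term. The 5 were 20.8% of the 24 tested, when 31.1% of all genes were higher, and the 9 were 13.4% of 67. For the mean RGRN-305 effect, 16 higher became 25 with library totals, 39 with no filter, 3 without the 7 ears and 0 with the term, and 1 lower became 0 with library totals and 2 with the block. The 3 were 12.5% of the 24 tested, when 11.6% of all genes were higher, and the 16 were 23.9% of 67. For the interaction, 0 higher became 2 with library totals, 1 with no filter, 2 without the ears and 2 with the term, and 1 lower became 2, 3, 4 and 2 with no filter, in DESeq2, without the ears and with the term. With all ears the shares were 0% and 1.49% of 67, when 25.8% and 25% of all genes passed. Without the 7 ears they were 8.33% and 16.7% of 24, against 22.4% and 21% of all genes. Library totals moved the median of all genes by 0.276 with TPA+RGRN-305 against TPA, -0.315 with TPA against vehicle, 0.119 for the mean effect and 0.300 for the interaction, and by 0.023 between the ears. Left-out libraries gave 4 to 31 higher and 3 to 3 lower with TPA+RGRN-305 against TPA, 0 to 0 with RGRN-305 against vehicle, 4 to 10 and 1 to 2 with TPA against vehicle, 3 to 30 and 1 to 3 for the mean effect, and 0 to 1 and 1 to 5 for the interaction. With a library left out, Krt71 by permutation differed by 2.03 to 3.40 with TPA+RGRN-305 against TPA and by 1.10 to 3.48 with RGRN-305 against vehicle. Without the 7 ears the first was 1.00 and the second was -0.91, against 2.38 with them. Since these ears were chosen on Krt71, no test goes with these 2 values. The causes were not tested.

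With a term for the 7 ears, built from counts of such genes, the mean RGRN-305 effect was -0.13 for Krt71, -0.17 for Krt26, -0.94 for Krtap28-10 and -0.22 for Tchhl1. These values follow in part from the choice of the ears and go with no test, and that of Krt71 was smaller than its SE. Of 496 values of 27 named genes between the ears, 450 moved by less than their error and 0 turned. These genes were markers, or were named for a called difference or likeness to Krt71, so that few turns were possible. Settings in which a gene fell below the filter on low counts gave no value. Replicate numbers did not pair the mice, since same-numbered ears correlated at -0.13 to 0.20 over 30 pairs. With the replicate block 49 genes were higher, all among the 53. Low counts limit most follicle genes, and 77 keratin-associated protein genes could not be tested.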
